A study of Mus musculus with 6 samples.

Results

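The genes of respiratory complex III, complex IV and ATP synthase were examined in mouse dorsal skin after 7 days of topical rebamipide. Members were taken by symbol: names starting with Uqcr, Uqcc, Atp5 or Cox followed by 5 to 8, together with Cyc1 and Cycs, apart from the tissue-specific Cox6a, Cox7a and Cox8 isoforms and Cox7a2l. The rule took 40 of the 21959 genes in the deposited table. They comprised 9 complex III subunits, 3 complex III assembly factors, cytochrome c, 8 complex IV rows, 18 ATP synthase rows and the pseudogene Cox5b-ps. The table keeps older symbols, so that Atp5g1, Atp5g2 and Atp5g3 stand for Atp5mc1, Atp5mc2 and Atp5mc3, and Atp5a1 and Atp5b for Atp5f1a and Atp5f1b.

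Male C57BL/6 mice were shaved on the back in telogen, the resting phase of the hair cycle, at 7 weeks of age. Vehicle, which was 30% dipropylene glycol in 70% water, or 3% rebamipide, a mucosal protective drug, was put on the shaved skin daily for 7 days. RNA of full-thickness dorsal skin from 3 mice in each group was sequenced from poly-A libraries, and the question was what the treatment changes in skin before hair regrowth starts. Library numbers below are the replicate numbers in the sample labels.

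Complex III passes electrons from ubiquinol to cytochrome c, and complex IV, cytochrome c oxidase, passes them on to oxygen. Both pump protons across the inner mitochondrial membrane, and ATP synthase lets the protons flow back through its c ring to drive ATP formation in its F1 head. Complex III, complex IV and ATP synthase are built from subunits encoded in the nucleus together with a few encoded in mitochondrial DNA, and they are abundant in heart and skeletal muscle. Brown fat mitochondria are rich in the respiratory chain and known for little ATP synthase beside it, together with low expression of the c subunit.

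Sequencing depth was 38676018 to 39915276 counts per library for vehicle and 32709801 to 34706852 for rebamipide. Of these counts the 40 members took 0.625% to 0.823% with vehicle and 1.97% to 2.51% with rebamipide. Genes of the mitochondrial genome took 2.59% to 5.36% and 13.28% to 21.96%, and levels are therefore given as CPM, the counts relative to the library total, after TMM normalization (normalized CPM), which scales libraries by genes that change little. The skin label was checked against basal keratinocyte markers, and rebamipide library 3 stood apart. It held 0 normalized CPM of Krt14 and Krt15 and 0.153 of Krt5, whereas the other 5 libraries held 209 to 1574 of Krt5. Values without this library are given beside the counts of members and partner genes and the c ring results.

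Of the 40 members, 38 passed the filter on low counts, and 33 of these rose in rebamipide-treated skin in edgeR's quasi-likelihood test at an adjusted p-value under 0.05. Of all 14875 genes tested, 14.1% were higher and 6.51% were lower at the same threshold. The adjusted p-values of the 33 genes were 0.00939 to 0.0192, and their log2 fold changes ran from 0.91 for Atp5g2 to 3.08 for Cyc1. The median log2 fold change of the 38 members was 2.13, against -0.17 over all genes tested. No member fell, and none had an unadjusted p under 0.05 in that direction, also with DESeq2 and limma-voom. The 5 members that passed the filter without a call were Atp5g1, Atp5g3, Atp5j, Uqcc2 and Cox6b2. With scaling by total counts alone the median over all genes was -0.78, that of the members was 1.49, and 32 members rose. Over all genes, 1258 of 14875 were higher with that scaling.

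The calls depended on single libraries in edgeR and limma-voom, while the median log2 fold change of the members moved little. Without rebamipide library 3, 31 members rose, with Atp5g2 and Atp5pb lost, and the median log2 fold change was 1.99. Over all genes, 1012 of 15327 tested were higher in that setting. Without vehicle library 2, 0 members were called, with a smallest adjusted p of 0.0747, and the median was 2.12. Without rebamipide library 2, 0 were called again, with a smallest adjusted p of 0.0573, and the median was 2.08. In both cases 33 members had an unadjusted p under 0.05, DESeq2 called 33, and limma-voom called 12 and 15. Over all genes, edgeR then called 0 and 1 genes higher, so that the loss was not particular to the members. It included every partner and marker gene described below.

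**Figure D1:**
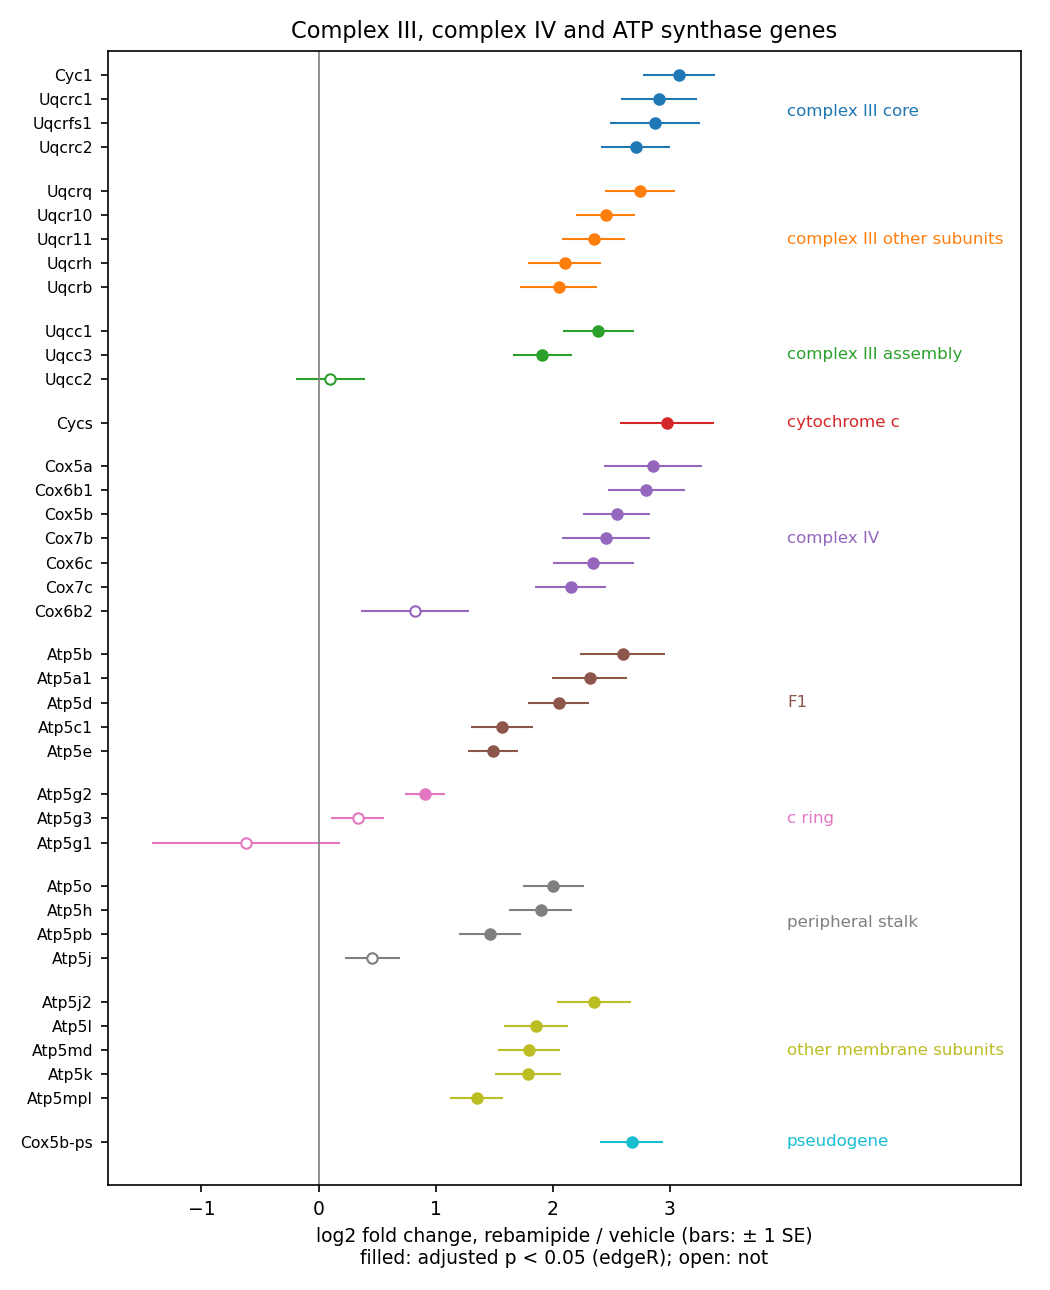
Log2 fold change of rebamipide against vehicle (x axis) for the 38 members that passed the filter (y axis, grouped by role), with standard errors derived from the edgeR F statistic as bars. Complex III subunit and cytochrome c genes reach 2.05 to 3.08, whereas the c ring genes lie between -0.62 and 0.91.

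Among the tested members, 34 of 38 had no overlap between the groups, with the lowest rebamipide library above the highest vehicle library, compared with 24.5% of all genes. A log2 fold change of at least 2 was found for 23 of 38 members and for 5.69% of all genes. The order of the libraries within each group was also shared. Vehicle library 1 was the lowest vehicle library for 36 of 38 members (43.0% of all genes), and rebamipide library 1 was the lowest rebamipide library for all 33 genes that rose and for Cox6b2 (46.5% of all genes). It was the highest rebamipide library for the other 4, namely Atp5g1, Atp5g3, Atp5j and Uqcc2 (42.0% of all genes). These orders are those of normalized CPM and depend on the scaling. In the deposited FPKM, rebamipide library 1 was the highest of its group for Atp5c1, Atp5e and Atp5g2 as well. Rebamipide library 2 was the lowest there for Atp5k and Atp5mpl. Genes of the same library share its RNA, so that these counts describe 6 samples and not 38 independent observations.

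All 9 complex III subunit genes rose, with a median log2 fold change of 2.71. Cyc1 encodes cytochrome c1, the haem subunit that hands electrons to cytochrome c. Its normalized CPM were 74.7, 85.7 and 103 in vehicle libraries 1 to 3 and 523, 802 and 901 in rebamipide libraries 1 to 3. The lowest rebamipide library was thus above the highest vehicle library, and the means differed 8.45-fold (log2 fold change 3.08 ± 0.31 SE, edgeR adjusted p = 0.00939). Uqcrfs1, the Rieske iron-sulfur protein, had 76.8, 117 and 175 normalized CPM in the vehicle libraries and 711, 949 and 1040.5 in the rebamipide libraries. The vehicle libraries spread more for this gene than for Cyc1, and the log2 fold change was 2.87 ± 0.39 SE (edgeR adjusted p = 0.0101).

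The core proteins Uqcrc1 and Uqcrc2 form the matrix-facing base of complex III. Uqcrc2 had 145, 168 and 180.3 normalized CPM in the vehicle libraries and 771, 1215 and 1233 in the rebamipide libraries, a log2 fold change of 2.71 ± 0.29 SE (edgeR adjusted p = 0.00939). Uqcrc1 rose by 2.91 ± 0.33 SE on the log2 scale. The exons of Uqcrc2 share 504 of 2552 bases with Pdzd9 on the opposite strand, and the reads were not stated to be counted by strand, so a part of its counts cannot be told apart from that gene.

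The 5 small complex III subunits, which surround the catalytic core, all rose, with log2 fold changes from 2.05 to 2.75, where those of the core genes were 2.71 to 3.08. The ranges overlapped, and the difference between these groups of genes was not tested. Uqcrq, a small membrane subunit, had the largest change, from 69.9, 82.2 and 102 normalized CPM in the vehicle libraries to 420.1, 587 and 699 in the rebamipide libraries (edgeR adjusted p = 0.00939). Uqcrb had the smallest, from 78.9, 106 and 136 to 309.8, 484 and 536 (log2 fold change 2.05 ± 0.33 SE, edgeR adjusted p = 0.0134). Even for Uqcrb the groups did not overlap. Uqcr10, whose level per length was below that of Uqcrh with vehicle (166 ± 18.8 against 199 ± 35.1 FPKM) and above it with rebamipide (585 ± 54.5 against 548 ± 88.8), within their spread in both groups, rose from 67.3, 78.5 and 89.2 to 339.8, 446 and 499.6 normalized CPM (log2 fold change 2.45 ± 0.25 SE, edgeR adjusted p = 0.00939). Uqcrh, the acidic hinge protein near the cytochrome c1 contact, rose from 154, 212 and 231 to 608, 915 and 1039 normalized CPM. Uqcr11 rose by 2.35 on the log2 scale.

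The complex III assembly factors did not move together. Uqcc1, which with Uqcc2 binds newly made cytochrome b, rose from 32.0, 44.4 and 53.5 normalized CPM to 164, 244 and 273 (log2 fold change 2.39 ± 0.31 SE, edgeR adjusted p = 0.00993). Its partner Uqcc2 had 25.7, 37.3 and 48.4 normalized CPM in the vehicle libraries and 50.02, 36.1 and 33.3 in the rebamipide libraries. The groups overlapped, the log2 fold change was 0.10 ± 0.30 SE (edgeR adjusted p = 0.82), and with total counts alone it was -0.48. Uqcc3, a further factor for cytochrome b, rose by 1.91 ± 0.25 SE on the log2 scale.

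Cycs encodes somatic cytochrome c, the mobile carrier between complexes III and IV. It had 118, 167 and 218 normalized CPM in the vehicle libraries and 834, 1572 and 1561 in the rebamipide libraries. Rebamipide libraries 2 and 3 were close to each other and library 1 was well below them, yet still above every vehicle library. The log2 fold change was 2.98 ± 0.40 SE (edgeR adjusted p = 0.0101), second among the members to Cyc1, and the estimates of these genes lay within their standard errors.

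Of the 8 complex IV genes, 7 passed the filter and 6 rose. The median of the 7 was 2.46 on the log2 scale. Cox5a, which contacts the catalytic core on the matrix side, had the largest change. It rose from 15.5, 21.7 and 41.4 normalized CPM in the vehicle libraries to 149, 200.3 and 219.7 in the rebamipide libraries (log2 fold change 2.86 ± 0.42 SE, edgeR adjusted p = 0.0114). Vehicle library 3 held more than libraries 1 and 2 added together, yet no vehicle library reached the lowest rebamipide library. The exons of Cox5a share 269 of 2101 bases with Gm26631 on the opposite strand. Cox5b, the zinc-binding subunit, rose by 2.55 ± 0.28 SE on the log2 scale.

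Cox6b1, which bridges the monomers of the complex IV dimer, had the highest level per length of the complex IV members. Its normalized CPM were 138, 169 and 184 in the vehicle libraries and 773, 1227 and 1419 in the rebamipide libraries (log2 fold change 2.80 ± 0.33 SE, edgeR adjusted p = 0.00939). Its testis-type counterpart Cox6b2 stayed low, with 3.21, 2.11 and 1.22 normalized CPM in the vehicle libraries and 2.80, 4.44 and 4.35 in the rebamipide libraries. The groups overlapped and the change did not pass the test (log2 fold change 0.82 ± 0.46 SE, edgeR adjusted p = 0.225). The other testis-type gene, Cox7b2, had 0 counts in all 6 libraries, which allows up to 0.0752 to 0.0917 CPM in a library by counting error alone. Cox7b, Cox6c and Cox7c rose by 2.46, 2.35 and 2.15 on the log2 scale.

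The pseudogene Cox5b-ps rose by 2.67 ± 0.27 SE on the log2 scale, from 7.77 to 10.4 normalized CPM with vehicle to 42.3 to 69.9 with rebamipide. It is a near copy of Cox5b, whose change was 2.55, and the authors' counting could have divided reads between the copies. Its value is therefore uncertain, and without it the median of the members moved by less than the spread between libraries.

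Of the 18 ATP synthase rows, 17 passed the filter and 14 rose. On the log2 scale the median of the 17 was 1.79. The remaining row, a second entry named Atp5o of 530 bases, had 0 counts in all 6 libraries. In the GENCODE M21 annotation it shares 243 of its exon bases with the main Atp5o gene and 287 with Donson. Reads in shared bases cannot be assigned to either gene, so that its 0 says little about its transcription.

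All 5 genes of the F1 head, where ATP is formed, rose. Atp5b encodes the catalytic beta subunit and was the most abundant member by counts. It had 1045, 1104 and 1209 normalized CPM in the vehicle libraries and 4846, 7546 and 7915 in the rebamipide libraries (log2 fold change 2.60 ± 0.36 SE, edgeR adjusted p = 0.0104). The vehicle libraries lay close together and all rebamipide libraries were above them, with library 1 the lowest. Atp5a1, Atp5d and Atp5c1, for the alpha, delta and gamma subunits, rose by 2.31, 2.05 and 1.57 on the log2 scale. Atp5e, for the epsilon subunit, had the smallest change of the head, from 70.8, 85.2 and 98.7 normalized CPM to 221, 226 and 269.7 (log2 fold change 1.49 ± 0.21 SE, edgeR adjusted p = 0.0107).

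Of the 3 c ring genes, 1 rose. Atp5g1, Atp5g2 and Atp5g3 encode the same mature c subunit and differ in their import peptides. Atp5g1, at chr11:95959678-95966496 on the minus strand in the positions of the table, had 63.6, 73.7 and 93.6 normalized CPM in the vehicle libraries and 112, 27.6 and 10.5 in the rebamipide libraries. Rebamipide library 1 was above every vehicle library, and rebamipide libraries 2 and 3 were below every vehicle library. The change did not pass the test (log2 fold change -0.62 ± 0.80 SE, edgeR adjusted p = 0.583), and the standard error was the largest of the members.

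Rebamipide library 1 decided the value of Atp5g1. Without it the log2 fold change was -2.01 and Atp5g1 was called lower (edgeR adjusted p = 0.0383), and DESeq2 and limma-voom also called it lower in that setting. Without rebamipide library 3 it was -0.13 (edgeR adjusted p = 0.898). The sum of the fast skeletal muscle markers had the same order within each group, with normalized CPM of 5317, 22388 and 26416 in the vehicle libraries and 33731, 7111 and 272 in the rebamipide libraries. Of the single markers, Acta1 and Myh1 had their highest vehicle level in library 2 and did not share that order. The basal keratinocyte markers summed to 2454, 3979 and 3388 in vehicle libraries 1 to 3, an order that Atp5g1 did not share. They summed to 1141, 707 and 131 in rebamipide libraries 1 to 3, an order that Atp5g1 shared. The part of these tissues in the Atp5g1 level was not tested, and in bulk skin fewer cells of a type and less RNA per cell cannot be told apart.

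Atp5g3 was the most abundant c ring gene and did not pass the test. It had 182, 206 and 253 normalized CPM in the vehicle libraries and 309, 263 and 236 in the rebamipide libraries (log2 fold change 0.33 ± 0.22 SE, edgeR adjusted p = 0.299), and with total counts alone its change was -0.26 and without rebamipide library 3 it was 0.43 (edgeR adjusted p = 0.359). Atp5g2 had 77.2, 68.5 and 68.5 normalized CPM in the vehicle libraries and 122, 132 and 148 in the rebamipide libraries. All rebamipide libraries were above all vehicle libraries and Atp5g2 rose by 0.91 ± 0.17 SE on the log2 scale (edgeR adjusted p = 0.0192). This call was lost without rebamipide library 3 (log2 fold change 0.84, edgeR adjusted p = 0.0748), with the replicate number as a block (edgeR adjusted p = 0.0541) and with total counts alone.

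**Figure D2:**
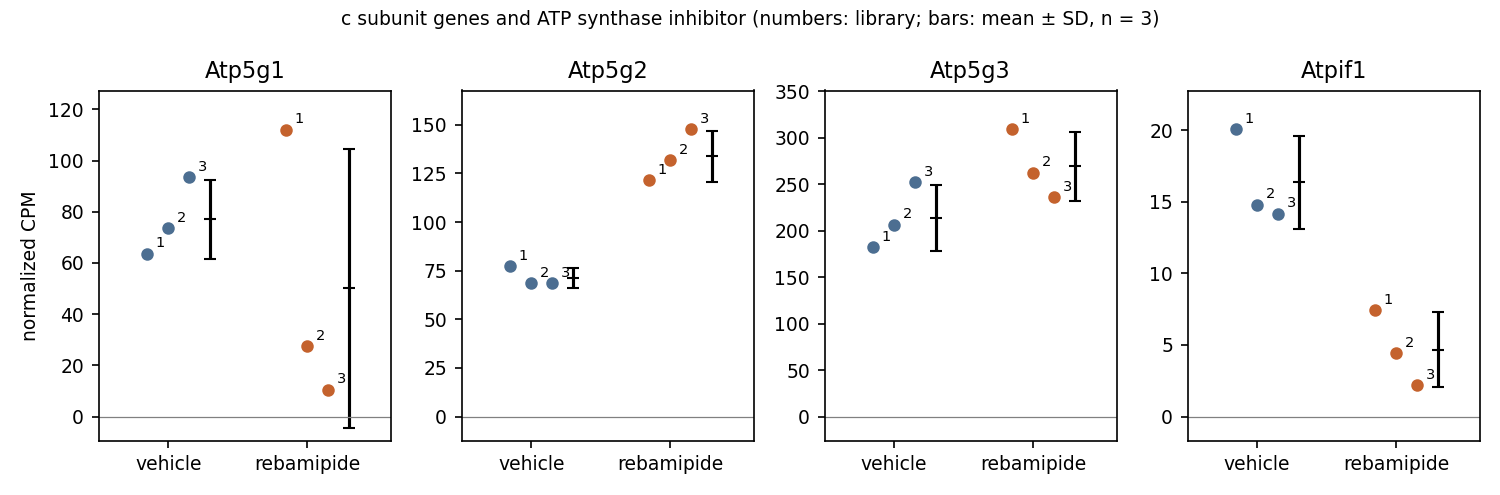
Normalized CPM (y axis, linear) of the c ring genes Atp5g1, Atp5g2 and Atp5g3 and of Atpif1, the ATP synthase inhibitor, in each library (points, numbered), with the group mean and SD beside them, n = 3. Atp5g2 lies at 122 to 148 in the rebamipide libraries, above all vehicle libraries, whereas Atp5g1 spreads from 10.5 to 112 among them, so that its SD bar reaches below 0.

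The share of Atp5g1 in the summed FPKM of the c ring genes does not depend on how libraries are scaled, but does depend on the gene lengths used. It was 9.09%, 9.97% and 10.8% in the vehicle libraries and 9.62%, 2.74% and 1.07% in the rebamipide libraries. Rebamipide library 1 lay within the vehicle range and the other rebamipide libraries were below it. The means were 9.97% ± 0.88 and 4.48% ± 4.53 (SD, n = 3 each), a difference of -5.49 percentage points with a two-sided exact permutation p of 0.2, where 0.1 is the smallest value that 3 against 3 samples allow. Without rebamipide library 3 the difference was -3.79 points, and with counts in place of FPKM, which leaves gene length in, it was -11.2 points. The share of Atp5g2 was 23.3% to 32.4% in the vehicle libraries and 30.6%, 38.5% and 44.4% in the rebamipide libraries.

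The promoters of the c ring genes are shown because the genes encode the same mature protein and differ in level, beside the promoters of 4 genes that rose, of which Cycs and Uqcrc1 hold letters of a motif and Atp5b and Cox5b hold none. Each line gives 250 bases before to 50 bases after the start of the gene, 5′ to 3′ on the strand of the gene, from RefSeq on GRCm38.p6, which is not the build of the gene positions above. Capitals mark exact matches on either strand to the core letters of nuclear respiratory factor 1 (NRF1, GCGCATGC), of the oestrogen-related receptors (ERR, CAAGGTCA) or of GABP (CGGAAGTG), factors known for mitochondrial genes. Where the NRF1 letters match on both strands at overlapping places, the capitals cover both matches.
Atp5g1, chr11:96075582-96075881, minus strand: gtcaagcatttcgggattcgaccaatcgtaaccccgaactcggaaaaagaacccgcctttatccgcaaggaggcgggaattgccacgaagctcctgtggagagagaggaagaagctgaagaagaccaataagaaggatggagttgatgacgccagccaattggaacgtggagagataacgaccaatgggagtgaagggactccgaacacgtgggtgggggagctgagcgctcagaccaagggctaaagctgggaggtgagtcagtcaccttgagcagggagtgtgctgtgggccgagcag
Atp5g2, chr15:102670998-102671297, minus strand: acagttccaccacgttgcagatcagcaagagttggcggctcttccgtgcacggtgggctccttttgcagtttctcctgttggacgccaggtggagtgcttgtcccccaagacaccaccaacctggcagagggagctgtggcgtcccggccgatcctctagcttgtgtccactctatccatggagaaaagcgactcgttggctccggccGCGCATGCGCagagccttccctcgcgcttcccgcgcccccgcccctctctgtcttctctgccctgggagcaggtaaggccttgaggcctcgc
Atp5g3, chr2:73911277-73911576, minus strand: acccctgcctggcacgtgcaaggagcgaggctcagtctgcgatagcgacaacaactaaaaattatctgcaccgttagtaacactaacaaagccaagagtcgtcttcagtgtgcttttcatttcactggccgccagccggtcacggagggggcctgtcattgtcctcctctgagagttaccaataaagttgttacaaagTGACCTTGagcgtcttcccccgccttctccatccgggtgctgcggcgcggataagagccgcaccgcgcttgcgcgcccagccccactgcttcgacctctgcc
Cycs, chr6:50566520-50566819, minus strand: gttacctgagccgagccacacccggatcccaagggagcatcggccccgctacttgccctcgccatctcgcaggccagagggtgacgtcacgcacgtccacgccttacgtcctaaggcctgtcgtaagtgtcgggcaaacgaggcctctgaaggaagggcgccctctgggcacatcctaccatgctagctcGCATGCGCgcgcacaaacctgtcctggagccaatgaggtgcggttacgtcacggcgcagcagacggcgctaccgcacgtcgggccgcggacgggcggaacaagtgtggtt
Uqcrc1, chr9:108936398-108936697, plus strand: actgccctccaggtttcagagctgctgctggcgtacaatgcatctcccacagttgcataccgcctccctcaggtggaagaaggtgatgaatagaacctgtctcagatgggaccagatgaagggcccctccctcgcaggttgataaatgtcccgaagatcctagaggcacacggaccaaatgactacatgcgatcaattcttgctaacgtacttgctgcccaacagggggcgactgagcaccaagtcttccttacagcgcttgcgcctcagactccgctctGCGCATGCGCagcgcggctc
Atp5b, chr10:128083057-128083356, plus strand: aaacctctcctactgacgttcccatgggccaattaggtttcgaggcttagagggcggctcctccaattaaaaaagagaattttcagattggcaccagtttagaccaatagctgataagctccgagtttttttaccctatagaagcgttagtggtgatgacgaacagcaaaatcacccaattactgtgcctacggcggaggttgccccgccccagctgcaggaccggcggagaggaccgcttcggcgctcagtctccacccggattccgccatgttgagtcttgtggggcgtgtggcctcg
Cox5b, chr1:36691237-36691536, plus strand: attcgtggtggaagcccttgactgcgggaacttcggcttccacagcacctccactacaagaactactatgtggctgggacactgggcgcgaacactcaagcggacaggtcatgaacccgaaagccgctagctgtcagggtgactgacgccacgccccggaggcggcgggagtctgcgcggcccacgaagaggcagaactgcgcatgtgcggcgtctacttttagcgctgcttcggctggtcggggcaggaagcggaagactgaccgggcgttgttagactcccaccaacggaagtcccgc

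The promoter table held 31 of the 39 member symbols. NRF1 letters were found in 6 of the 31 promoters (19.4%), against 3.05% of the promoters of 27025 genes, and these were Atp5g2, Atp5k, Atp5l, Cycs, Uqcr11 and Uqcrc1. ERR letters were found in 3 (9.68%, against 1.76%), namely Atp5g3, Atp5l and Uqcc3, and GABP letters in 2 (6.45%, against 3.86%), namely Cox6b1 and Uqcrh. In the window of Atp5g1 none of the 3 motifs was found in these exact letters. A match is a description of the letters and not evidence of a bound site, and promoters differ in base composition, which was not matched here.

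The peripheral stalk holds the F1 head still against the turning ring. Atp5o, its top subunit, rose from 14.4, 21.2 and 22.0 normalized CPM in the vehicle libraries to 60.3, 82.6 and 88.5 in the rebamipide libraries (log2 fold change 2.01 ± 0.26 SE, edgeR adjusted p = 0.00993). Atp5h, the subunit with the highest level per length in the stalk, rose from 156, 175 and 183 to 461, 685 and 766 (log2 fold change 1.90 ± 0.27 SE, edgeR adjusted p = 0.0107). Atp5pb rose by 1.46 on the log2 scale and lost its call without rebamipide library 3. Of the 1972 exon bases of Atp5o, 356 are shared with Gm15976 and 346 with D430001F17Rik on the opposite strand.

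Atp5j, which encodes coupling factor 6 of the same stalk, had 91.0, 131 and 150.2 normalized CPM in the vehicle libraries and 180.5, 167 and 165 in the rebamipide libraries. The rebamipide libraries lay above the vehicle libraries, but the change did not pass the test (log2 fold change 0.46 ± 0.23 SE, edgeR adjusted p = 0.192). With total counts alone it was -0.14, so that the direction depended on the scaling. The exons of Atp5j share 397 of 3130 bases with Gabpa on the opposite strand.

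All 5 other membrane subunits of ATP synthase, which hold the ring in the membrane and join the enzyme into dimers, rose. Atp5j2 had the largest change, from 123, 165 and 194 normalized CPM to 593, 858 and 1009 (log2 fold change 2.35 ± 0.32 SE, edgeR adjusted p = 0.0102). Atp5mpl had the smallest, from 73.6, 90.2 and 108 to 199.98, 236 and 257 (log2 fold change 1.35 ± 0.23 SE, edgeR adjusted p = 0.0145). Atp5l, Atp5md and Atp5k lay between them, at 1.86, 1.80 and 1.79 on the log2 scale. For each of the 5 genes the groups did not overlap.

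Atpif1, which is not a member by name, encodes the inhibitor that blocks ATP hydrolysis by the F1 head, and it was lower. It had 20.1, 14.8 and 14.2 normalized CPM in the vehicle libraries and 7.41, 4.44 and 2.18 in the rebamipide libraries (log2 fold change -1.805 ± 0.48 SE, edgeR adjusted p = 0.0452). The call was lost in 6 alternatives, among them those without vehicle library 1, 2 or 3 and without rebamipide library 2 or 3, where the adjusted p was 0.0694 to 0.158, while DESeq2 gave 0.00248. Dmac2l, the ATP synthase coupling factor B protein, rose by 1.36 ± 0.31 SE on the log2 scale. Its call was lost without any single library other than rebamipide library 1 (edgeR adjusted p = 0.0601 to 0.122). It was also lost with total counts alone (log2 fold change 0.71, edgeR adjusted p = 0.0706) and with limma on log2(FPKM + 1) (0.60, adjusted p = 0.0537).

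Levels per length were compared with the deposited FPKM, which scale by total counts. In the vehicle libraries the highest members were Atp5b with 327 ± 15.8, Atp5a1 with 321 ± 26.9 and Cox6b1 with 286 ± 33.9 FPKM (mean ± SD, n = 3). Atp5b and Atp5a1 did not differ beyond their spread. In the rebamipide libraries Cox6b1 with 1274 ± 250.4 and Atp5b with 1267 ± 182 FPKM were highest and again did not differ beyond their spread, followed by Atp5a1 with 1026 ± 95.7. Atp5g3 moved from rank 10 to rank 27 of the 38 tested members, and its FPKM were 121 ± 17.1 and 101 ± 26.8. Uqcrfs1 moved from rank 12 to rank 6, with 111 ± 42.0 and 527 ± 46.5 FPKM.

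The ratio of the summed FPKM of ATP synthase genes to those of complex III and IV genes was 1.10, 0.996 and 0.943 in the vehicle libraries and 0.739, 0.688 and 0.648 in the rebamipide libraries. All vehicle libraries were above all rebamipide libraries, and the means were 1.01 ± 0.078 and 0.692 ± 0.045 (SD, n = 3 each). On the log2 scale the difference was -0.55, and without the c ring genes, an alternative chosen after seeing the data, it was -0.435. Without rebamipide library 3 it was -0.503. With each gene weighted equally it was -0.99. No test was made of this ratio, since its genes were chosen with results of these data known. The ratio of Atp5b to the summed c ring genes, noticed after the values were seen, was 1.62 to 1.73 in the vehicle libraries and 4.82, 8.70 and 9.40 in the rebamipide libraries.

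**Figure D3:**
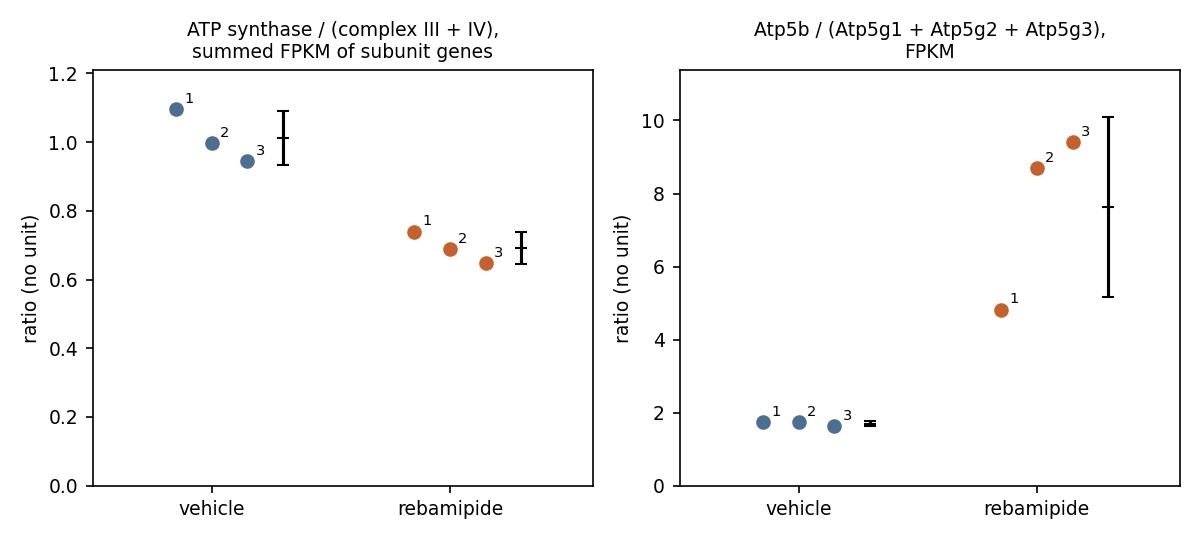
Ratios of FPKM within each library (points, numbered), with group mean and SD beside them, n = 3: ATP synthase to complex III and IV genes (left) and Atp5b to the summed c ring genes (right). The ratio of ATP synthase to complex III and IV genes lies at 0.943 to 1.10 in the vehicle libraries and at 0.648 to 0.739 in the rebamipide libraries.

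The partner subunits encoded in mitochondrial DNA rose with the nuclear ones, 6 of 6, with a median log2 fold change of 4.14. mt-Co1, the catalytic subunit of complex IV, had 12355, 20955 and 26512 normalized CPM in the vehicle libraries and 93066, 154350 and 181080 in the rebamipide libraries (log2 fold change 2.84 ± 0.72 SE, edgeR adjusted p = 0.0403). mt-Cytb, the cytochrome b of complex III, rose by 3.03 ± 0.64 SE from 3134 to 7273 normalized CPM in the vehicle libraries to 23582 to 56165. The groups did not overlap for either gene. mt-Co2, mt-Co3, mt-Atp6 and mt-Atp8 rose by 4.42, 3.98, 4.32 and 4.29, but they held far fewer reads than mt-Co1, at 0.120 to 83.9 normalized CPM in the vehicle libraries. mt-Atp6 and mt-Atp8 overlap in the mitochondrial genome and these genes have near-identical nuclear copies, so their values are uncertain. The call of mt-Co1 was lost without any single library other than rebamipide library 1, those of mt-Cytb, mt-Co2 and mt-Atp8 also without vehicle library 1, which left 2 of 6, and that of mt-Atp8 without rebamipide library 3 (edgeR adjusted p = 0.0505), where 4 of 6 were called higher. On all 6 libraries mt-Co1 also lost its call with upper quartile scaling, total counts alone, at least 10 counts in every library and limma on log2(FPKM + 1), with adjusted p-values of 0.0686, 0.0526, 0.0617 and 0.429, and mt-Cytb with the last of these (0.165).

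Of other subunit genes outside the rule, the Cox4 isoforms, Ndufa4 and complex II were examined. Cox4i1 and Ndufa4, subunits of complex IV, rose by 2.60 and 2.39 on the log2 scale, and Cox4i2, the isoform of low oxygen, did not pass the test (0.82 ± 0.37 SE, edgeR adjusted p = 0.148). Complex II, which feeds electrons from succinate into the chain, had 8 of 8 subunit and assembly genes higher. Sdha, Sdhd and Sdhb rose by 3.15, 3.12 and 3.04, and Sdhaf1 had the largest p of the list (1.51 ± 0.36 SE, edgeR adjusted p = 0.0357). Without rebamipide library 3 and with total counts alone, 5 of 8 complex II genes were called higher, and Sdhaf1 was not among them.

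Of the assembly factors of the complexes, 24 of 30 tested were higher and 0 were lower. For complex III these were 3 of 3, with Lyrm7 and Bcs1l, which insert the Rieske protein, at 2.70 and 2.00 and Ttc19 at 1.17. For complex IV they were 16 of 22 tested, with Coa5, Cox10 and Taco1 at 2.38, 1.99 and 1.82, and Coa4 without a call (0.23 ± 0.25 SE, edgeR adjusted p = 0.512). Sco2 and Pet117 were at 0 counts in all libraries. For ATP synthase they were 5 of 5, with Atpaf2, Fmc1 and Tmem242 at 2.89, 2.56 and 1.72 and Atpaf1 at 0.86 ± 0.23 SE (edgeR adjusted p = 0.0485). Of the supercomplex factors, Higd2a and Cox7a2l rose by 1.59 and 0.99, and Higd1a did not pass the test (0.68 ± 0.26 SE, edgeR adjusted p = 0.105). Without rebamipide library 3 the assembly factors called higher were 14 of 30, of which 8 of 22 for complex IV, 2 of 3 for complex III and 4 of 5 for ATP synthase. With total counts alone they were 19 of 30, and with the replicate number as a block 15 of 30, of which 9 of 22 for complex IV. Among the genes named here, Atpaf1, Cox7a2l and Ttc19 lost their call without rebamipide library 3 and with total counts alone, as did Dmac2l.

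The carriers that bring phosphate and ADP to ATP synthase did not pass the test. Slc25a3, the phosphate carrier, had 296, 309.6 and 336 normalized CPM in the vehicle libraries and 477, 373 and 331 in the rebamipide libraries (log2 fold change 0.33 ± 0.23 SE, edgeR adjusted p = 0.315). Slc25a4, the ADP/ATP carrier of muscle and heart, had 192, 534 and 708 and then 909, 556 and 378 (log2 fold change 0.36 ± 0.55 SE, edgeR adjusted p = 0.648). Both had their highest rebamipide level in library 1, as Atp5g1 and Atp5g3 did. Slc25a5 had a log2 fold change of 0.61 ± 0.28 SE (edgeR adjusted p = 0.158). Ucp1, the brown fat protein that lets protons bypass ATP synthase, had 0 counts in vehicle libraries 1 to 3, which allows up to 0.0752 to 0.0776 CPM before normalization, and held 2669, 8591 and 5746 normalized CPM in the rebamipide libraries.

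Several lists of cell type markers also had higher sums with rebamipide, and the brown adipocyte list did not follow the library order of most members. The 8 brown adipocyte markers summed to 209, 186 and 342 normalized CPM in vehicle libraries 1 to 3 and 4532, 12293 and 9877 in rebamipide libraries 1 to 3. Of these markers 4 of 8 were called higher, and Ucp1 was at 0 in all vehicle libraries. The number was 3 of 8 without rebamipide library 3, without vehicle library 1 or 3 and with total counts alone. It was 5 of 8 without rebamipide library 1. Ucp1 and Cidea carried most of the sum with rebamipide, while Zic1 had a log2 fold change of 0.087 and Elovl3 of -1.45 without a call (edgeR adjusted p = 0.89 and 0.0575). With total counts alone Elovl3 was called lower (log2 fold change -2.04, edgeR adjusted p = 0.027). The study's methods describe a piece of shaved dorsal skin cut out around a central segment, without tying it to the mice that were sequenced. Whether the same region of the back was taken in both groups is not given in the sources used here, and a difference in region cannot be told apart from the treatment in any rise of the members. The 8 general adipocyte markers summed to 1465 to 4330 and 9918 to 17063, with 5 of 8 called higher. Without vehicle library 1 or rebamipide library 3 it was 4 of 8. With all 6 libraries Lep, Cfd and Retn were not called. The 6 endothelial markers summed to 209 to 497 and 1012 to 1459, with 3 of 6 called higher, 6 of 6 without vehicle library 3, and 2 of 6 without vehicle library 1 or rebamipide library 3. The sums of these lists were lowest in rebamipide library 1 among the rebamipide libraries, although single genes such as Lep, Cfd, Retn and Elovl3 were not.

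Muscle and epidermal markers followed other orders. The 8 fast muscle markers summed to 5317 to 26416 and 272 to 33731 normalized CPM with 0 of 8 called, and the 5 slow muscle markers to 1.80 to 12.8 and 5.99 to 256 with 3 of 5 called higher, but 0 of 5 without vehicle library 1, without vehicle library 3 or with the replicate number as a block. The 6 basal keratinocyte markers summed to 2454 to 3979 and 131 to 1141 with 0 of 6 called, and Krt14 and Krt15 were at 0 in rebamipide library 3. In that library, where fast muscle and keratinocyte markers were at their lowest, the members took 2.51% of the counts, the highest share of all libraries. The part of the cell type makeup of each sample in the members' levels was not tested.

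**Figure D4:**
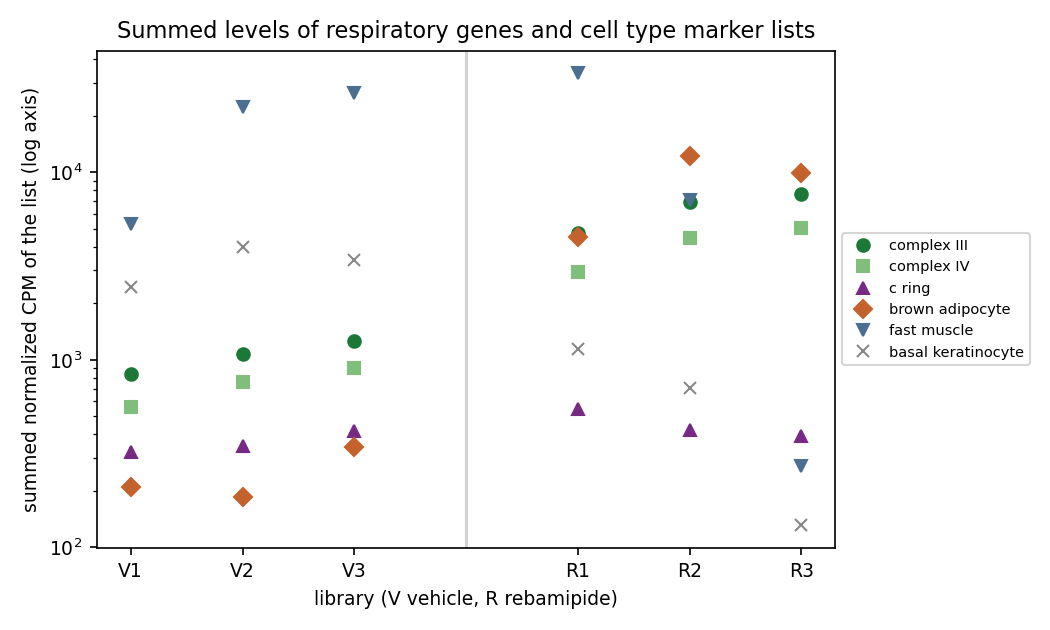
Summed normalized CPM (y axis, log scale) of the complex III, complex IV and c ring genes and of the brown adipocyte, fast muscle and basal keratinocyte markers in each vehicle (V) and rebamipide (R) library. Complex III genes reach 4725 to 7704 in the rebamipide libraries, where the fast muscle markers range from 272 to 33731.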

How the data were processed

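Whole-number read counts per gene and FPKM were deposited by the authors in a single table for all 6 libraries. The submitters' processing notes name fastp 0.22.0, HISAT2 2.1.0, HTSeq 0.9.1 and GRCm39, and the study's methods name DESeq2. The FPKM deposited by the authors equal counts divided by table length and summed counts (100% of values within 0.1%), and for 40 of 40 members that length equals the merged exons of GENCODE M21. A long annotated transcript thus lowers a gene's FPKM. Table positions were not mixed with GRCm38: of 21163 genes with the same symbol, 579 had starts that differed by at most 1000 bases.

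The groups were tested on the counts with edgeR 4.0.16 under R 4.3.3 (TMM, filterByExpr, glmQLFit, glmQLFTest, Benjamini-Hochberg adjustment over 14875 genes, threshold 0.05). This test gives no standard error, so the SE printed is the absolute log2 fold change divided by the square root of its F statistic. Alternatives were DESeq2 1.42.0, limma-voom (limma 3.58.1), RLE, upper quartile and total count scaling, mitochondrially encoded genes left out, no filter, at least 10 counts in every library, the replicate number as a block, leaving out each library, the study's thresholds and limma on log2(FPKM + 1). Scripts were tested on simulated counts. Replicate libraries are separate mice and differed by more than counting noise (chi-square divided by degrees of freedom, 83.1 to 742.3). A count of 0 allows up to 3 counts, which covers counting error only. TMM factors were 1.21 to 1.279 for vehicle and 0.746 to 0.929 for rebamipide.

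The members and all gene lists were chosen with earlier results of these data known. Values in every library are given for the most abundant, most changed and least changed tested gene of each role, the c ring genes, cytochrome c, the inhibitor and the testis-type genes. Of the partner lists, all mitochondrially encoded genes are named, and otherwise the 3 smallest and the largest p. Other names were added after their values were seen. Promoters are from RefSeq.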

Additional observations from a re-analysis of the deposited data

How the results depend on the processing

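The number of members that rose was 32 to 33 under the other normalizations, filters, tools and thresholds applied to all 6 libraries, and 0 to 33 in edgeR when a library was left out. With limma-voom it was 12 without vehicle library 2 and 15 without rebamipide library 2. The number that fell was 0 to 1 with a library left out: without rebamipide library 1, edgeR, DESeq2 and limma-voom each called 1, Atp5g1. For the 44 partner genes called higher, the range with a library left out was 0 to 46, with 27 without rebamipide library 3, and it was 33 with total counts alone, 33 with log2(FPKM + 1) and 34 with the replicate block. Atpaf1 was further lost with RLE scaling, no filter and the block, and Sdhaf1 and Ttc19 with the block. The cause of these losses was not tested.

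Scaling by total counts alone lowered the medians to 1.49 for the members, 2.06 for complex III, 1.82 for complex IV and 1.16 for ATP synthase, and limma on log2(FPKM + 1), which uses the same scaling, gave 1.49, 2.05, 1.84 and 1.16. The median of ATP synthase with a library left out was 1.54 to 1.95. The log2 ratio of ATP synthase to complexes III and IV was -0.99 with genes weighted equally and -0.435 without the c ring genes. With total counts alone and with log2(FPKM + 1), the direction turned for Atp5g3 (-0.26 and -0.28), Atp5j (-0.14 and -0.13), Uqcc2 (-0.48 and -0.49), Coa4 (-0.39 and -0.27), Slc25a3 (-0.27 and -0.30) and Slc25a4 (-0.19 and -0.15), and with total counts alone for Slc25a5 (-0.036). None of these genes was called in either direction. Without vehicle library 1 and without rebamipide library 1 it turned for Uqcc2 (-0.13 and -0.094, in a range with a library left out up to 0.351) and Slc25a4 (-0.031 and -0.028, up to 0.779).

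With the replicate number as a block, 32 members rose, with Atp5g2 lost, and the median was 2.12. The labels do not pair the samples by number, same-numbered libraries did not deviate together (correlations of -0.016, -0.038 and 0.003), and no vehicle library correlated best with the rebamipide library of its own number. The block lowered the number of genes called higher, over all genes, from 2093 to 1432.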
